A study of Rattus norvegicus with 8 samples.

Results

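The genes described here encode collagens, laminins and the glycoproteins and proteoglycans that surround them in the extracellular matrix, in sorted testis cells of young and aged rats. They were chosen by name: every RefSeq rat symbol of a collagen alpha chain, a laminin alpha, beta or gamma chain, a nidogen, a fibulin or a fibrillin, together with perlecan (Hspg2), fibronectin (Fn1), Sparc, decorin (Dcn), lumican (Lum), biglycan (Bgn) and matrix Gla protein (Mgp). This gave 70 symbols, of which 36 matched at least 1 of 49 array probes by accession and 34 matched none. After a filter on dim probes, 27 of the 36 were tested, among 10236 named genes in all. The cells carried the tetraspanin CD9 on their surface and had been sorted by flow cytometry. The testes were of Sprague Dawley rats bearing a green fluorescent protein transgene specific to germ cells, in both groups alike. The promoter that drives the transgene is not given in the sources used here. RNA of 4 young samples (4 months) and 4 aged samples (21 months), 18 ng each, was labelled with Cy3 and hybridised to 1-colour Agilent arrays. The labels do not say whether the samples came from separate animals, so a p-value here weighs a difference against the spread of these samples only, and that spread may be technical.

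Extracellular matrix takes 2 main forms around the seminiferous tubule. The basement membrane is a thin sheet on which spermatogonia and Sertoli cells sit: laminin trimers polymerise at the cell surface, collagen IV forms a covalently linked network, and nidogens and perlecan join the networks to each other. Outside it lies fibrillar matrix, in which collagens I, III and V assemble into fibrils that small proteoglycans such as decorin and biglycan decorate. Peritubular myoid cells, which are contractile, and Sertoli cells deposit the basement membrane of the tubule, while myoid cells and interstitial fibroblasts make most of the fibrillar matrix. Germ cells are not known as a main source of fibrillar collagen.

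Signals are given as the log2 of the processed signal relative to the 75th percentile of each array, so that 0 is that percentile, and they are compared between arrays for 1 gene and not between genes. That percentile lay between 326 and 524 units of intensity, and each array had 63.0% to 72.0% of its probes well above background. Among the markers of spermatogonia, Cd9 and the germ cell genes Zbtb16, Ddx4 and Dazl were well above background on all 8 arrays. So were contractile genes of myoid cells such as Acta2 and Myh11 and the endothelial Pecam1, and the macrophage receptor gene Adgre1 was on 7 of 8. RNA that marks cell types other than germ cells was thus present. Young replicate 1 and aged replicate 2 stood apart from the other arrays of their groups for many of the genes described here. Values without 1 or the other are given for some results. All arrays lay on 1 slide, young in one row and aged in the other, so that position and age cannot be told apart.

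Most matrix genes had lower values in aged than in young samples, and none passed the test over all genes. Of the 27 genes, 20 had lower means in aged samples, against 36.6% of all genes tested, and the median change was −0.57 on the log2 scale against 0.11 for all genes. With limma 0 of the 27 had a Benjamini-Hochberg adjusted p under 0.05, where 0.655% of all genes did. The smallest adjusted p was 0.0542, for Col1a1. At an unadjusted p under 0.05, 15 were lower and 1 was higher, where 13.6% and 17.8% of all genes were. In 6 genes (Col1a1, Col3a1, Col6a2, Lamc1, Fbn1 and Col18a1) all 4 aged values lay below all 4 young values, against 4.12% of all genes, and in 0 genes above, against 10.2%. On a further probe each of Col1a1 and Lamc1, also above background on all arrays, the groups overlapped. Col3a1, Lamb3 and Col8a1 passed the filter through the young arrays alone, and over the 24 genes above background on all 8 arrays the median was −0.48. In RNA from mixed cells, fewer cells of a type and less RNA per cell cannot be told apart.

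**Figure D1:**
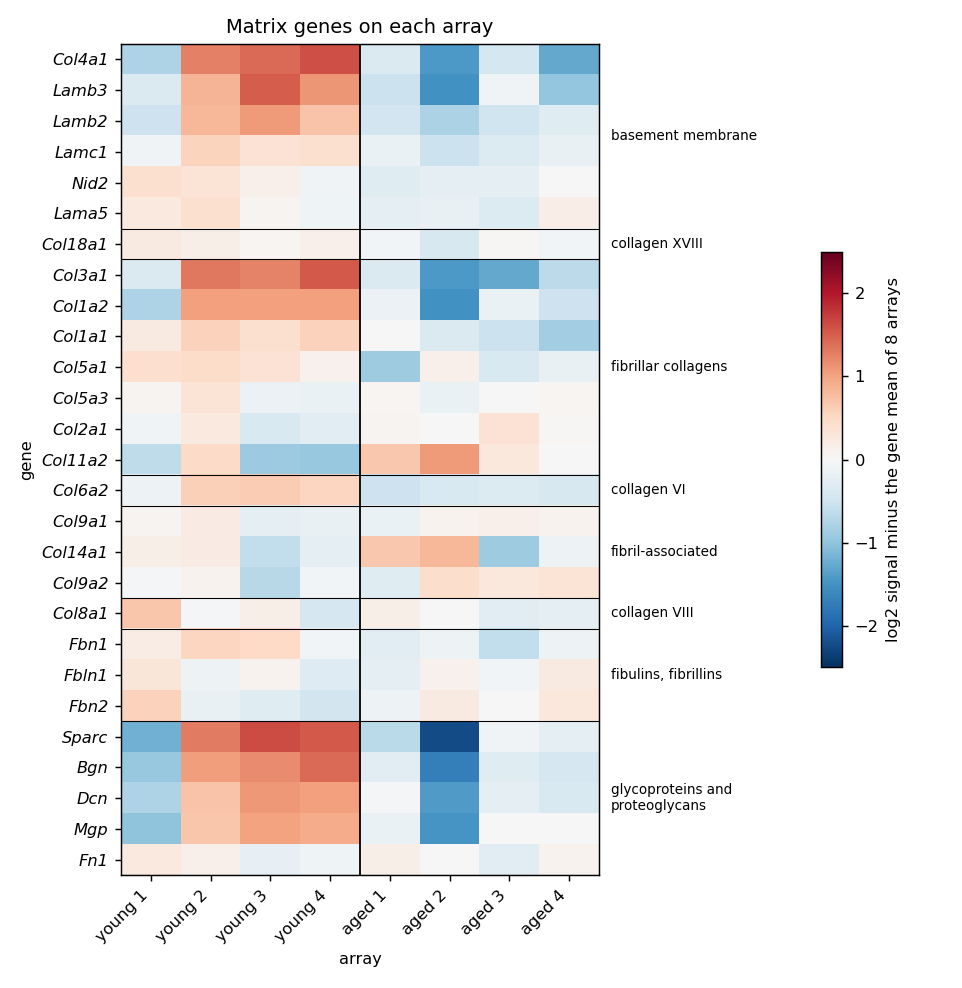
Log2 signal of each of the 27 tested matrix genes (rows, grouped by class) on each of the 8 arrays (columns), minus the mean of that gene over the arrays, with red above and blue below the mean. Young replicates 2 to 4 are the red block in Col4a1, Lamb3, Col3a1, Col1a2, Sparc, Bgn, Dcn and Mgp, while young replicate 1 is on the blue side with the aged arrays and aged replicate 2 is the lowest array for each of these 8 genes.

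Promoter windows of 4 genes are shown because their genes differ in how young replicate 1 behaved on the probes used. It lay within the aged range for Col4a1, Col1a2 and Sparc and above it for Lamc1. On a further, dimmer Col4a1 probe it lay above that range. Each window, from RefSeq on build GRCr8, runs from 250 bases before to 50 bases after the annotated start, 5′ to 3′ on the strand of the gene. RefSeq windows were given for 15 of the 27 tested genes. Capitals mark matches on either strand to a GC box, spelled GGGCGG. They also mark matches to a TATA box, whose letters are TATAAA. The remaining capitals are matches to CCAAT, the letters of the box of that name.
Col4a1, chr16:84885347-84885646, plus strand: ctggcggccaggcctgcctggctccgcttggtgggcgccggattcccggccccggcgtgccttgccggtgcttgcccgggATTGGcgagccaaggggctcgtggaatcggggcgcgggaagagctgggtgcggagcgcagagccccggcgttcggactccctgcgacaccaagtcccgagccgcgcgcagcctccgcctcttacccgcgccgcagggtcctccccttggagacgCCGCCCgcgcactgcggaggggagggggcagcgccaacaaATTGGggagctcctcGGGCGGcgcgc
Lamc1, chr13:68051937-68052236, minus strand: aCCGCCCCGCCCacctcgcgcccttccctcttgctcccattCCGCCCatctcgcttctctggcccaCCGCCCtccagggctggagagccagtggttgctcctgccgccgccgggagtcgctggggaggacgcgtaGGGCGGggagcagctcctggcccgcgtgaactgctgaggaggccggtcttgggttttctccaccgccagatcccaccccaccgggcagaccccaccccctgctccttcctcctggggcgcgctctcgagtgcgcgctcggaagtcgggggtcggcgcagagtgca
Col1a2, chr4:33518307-33518606, plus strand: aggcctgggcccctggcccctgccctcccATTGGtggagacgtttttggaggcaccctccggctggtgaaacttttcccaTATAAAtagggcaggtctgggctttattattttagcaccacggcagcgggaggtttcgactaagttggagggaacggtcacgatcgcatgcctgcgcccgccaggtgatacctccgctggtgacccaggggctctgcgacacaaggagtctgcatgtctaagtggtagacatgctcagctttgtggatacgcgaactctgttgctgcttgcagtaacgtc
Sparc, chr10:40038767-40039066, minus strand: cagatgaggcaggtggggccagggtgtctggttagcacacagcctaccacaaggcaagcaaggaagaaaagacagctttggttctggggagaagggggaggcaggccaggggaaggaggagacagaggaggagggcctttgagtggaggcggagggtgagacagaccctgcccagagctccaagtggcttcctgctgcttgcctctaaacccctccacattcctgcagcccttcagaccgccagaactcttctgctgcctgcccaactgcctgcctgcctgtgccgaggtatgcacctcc
Of these 4 windows, those of Col4a1 and Lamc1 were richer in G and C, at 75% and 71.7%, against 57.0% for Col1a2 and 61.0% for Sparc. This share was not computed for other windows, so it describes these 4 genes and not their classes. Col4a1 held 2 GC boxes and 2 CCAAT boxes, and its window shares 176 bases with that of Col4a2, which runs from the opposite strand. Lamc1 held 5 GC boxes, a pair of them overlapping by 1 base. Col1a2 held 1 TATA box and 1 CCAAT box, and Sparc held none of the 3. A GC box was found in 8 of the 15 windows against 33.1% of 33469 windows in all, a TATA box in 1 of 15 against 14.2%, and a CCAAT box in 4 of 15 against 37.5%. A match is a stretch of letters and no measured binding site.

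Basement membrane genes and fibrillar collagens both had lower medians in aged samples. Of 20 basement membrane genes listed, 10 matched a probe and 6 were tested. Perlecan (Hspg2), Nid1, Col4a2 and Lamb1 were among those without a matched probe. The 6 tested genes had a median change of −0.83, with all 6 lower. Col18a1 (−0.27), also a basement membrane collagen, was set in a class of its own and is not among the 6. Counted with them, it would move their median to the value of Lamc1, −0.62, no longer below that of the fibrillar collagens. The 7 fibrillar collagens tested, of 11 listed, had a median of −0.67, with 5 lower and 2 higher. The difference between the medians was −0.16, it was −0.43 without young replicate 1, and it turned to 0.08 without aged replicate 2. In the mean of a class on an array, after the average of each gene had been subtracted, basement membrane genes stood at −0.18, 0.71, 0.75 and 0.61 in young replicates 1 to 4 and at −0.34, −0.78, −0.32 and −0.43 in aged replicates 1 to 4. Fibrillar collagens stood at −0.16, 0.64, 0.23 and 0.27 in the young and at −0.09, −0.32, −0.25 and −0.31 in the aged samples. Thus the aged arrays were all below the young arrays for the basement membrane mean, and young replicate 1 lay among the aged arrays for the fibrillar mean. Basement membrane minus fibrillar was −0.02, 0.07, 0.53 and 0.34 on the young arrays and −0.25, −0.46, −0.08 and −0.12 on the aged arrays. All aged arrays lay below all young arrays in this difference of class means, which averaged 0.23 ± 0.25 in young and −0.23 ± 0.17 in aged samples (SD, n = 4 per group). Since the classes were chosen with results known, the difference is given without a test. When Col11a2 and Col2a1, collagens best known from cartilage and both with higher means in aged samples, were left out after their values were seen, the same difference was −0.10, −0.04, 0.18 and −0.01 on the young and −0.07, −0.12, 0.15 and 0.01 on the aged arrays, and the groups overlapped. Over genes above background on all arrays the medians were −0.62 for 5 basement membrane genes and −0.36 for 6 fibrillar collagens.

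**Figure D2:**
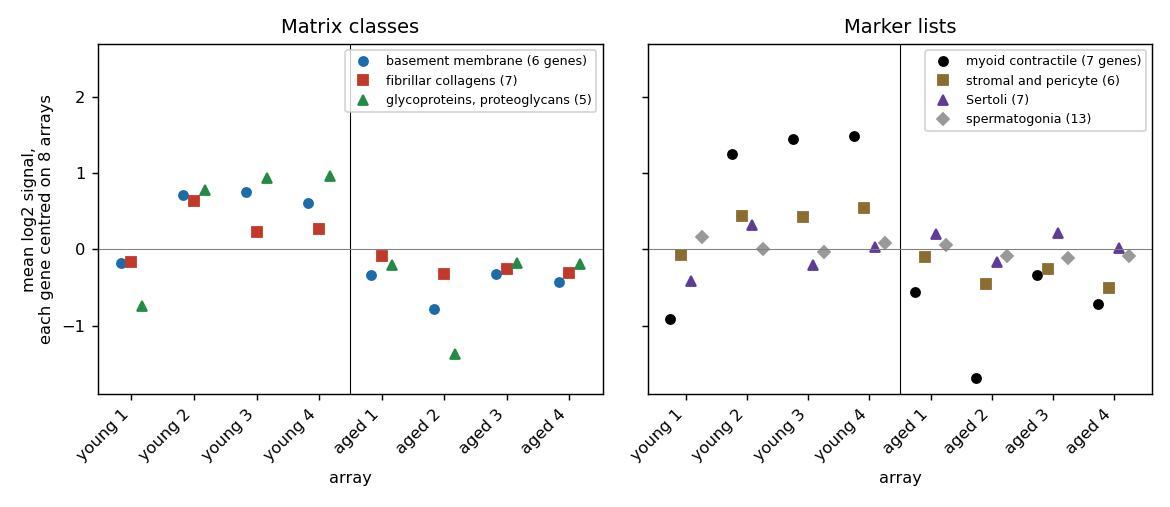
Mean log2 signal of gene classes on each array, after subtraction of the average of each gene over the 8 arrays. Left, matrix classes, which are highest in young replicates 2 to 4. Right, some of the marker lists on the same scale: myoid contractile genes range from −0.91 to 1.49 on the young arrays and from −1.69 to −0.34 on the aged arrays, while spermatogonial markers stay between −0.11 and 0.17.

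All 6 tested genes of the basement membrane class had lower means in aged samples, 5 of them at an unadjusted p under 0.05. Col4a1 encodes one of the chains of the collagen IV trimer found in nearly all basement membranes. Its signal was −3.15, −1.12, −0.97 and −0.78 in young replicates 1 to 4 and −2.75, −3.81, −2.82 and −3.67 in aged replicates 1 to 4. The groups overlapped through young replicate 1, which lay within the aged range. The mean was 3.38-fold lower in aged samples, a log2 change of −1.76 ± 0.51 (SE, n = 4 per group, limma adjusted p = 0.0782).

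Lamb2 encodes the laminin beta 2 chain, which replaces beta 1 in mature basement membranes. It stood at −2.20, −0.85, −0.61 and −0.97 in the young and at −2.16, −2.46, −2.17 and −1.97 in the aged samples, so that young replicate 1 was again among the aged arrays (log2 change −1.03 ± 0.31, adjusted p = 0.0832). Lamb3, the beta chain of the epithelial anchoring laminin, was near background, well above it on all 4 young but on 2 of 4 aged arrays. Its values were −4.83, −3.62, −2.96 and −3.36 in the young and −5.00, −5.99, −4.56 and −5.44 in the aged samples (−1.55 ± 0.42, adjusted p = 0.0705).

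Lamc1, the gamma chain shared by most laminins, differed by less but without overlap on the probe used. Young values were −1.69, −1.04, −1.25 and −1.20 and aged values −1.77, −2.15, −1.94 and −1.80. Young replicate 1 was the lowest young array, just above the highest aged value (−0.62 ± 0.16, adjusted p = 0.0640). On a further Lamc1 probe, also above background on all arrays, the groups overlapped. There young replicate 1 (−2.82) was not the lowest young array (others −2.94, −2.64 and −2.97). Nid2, a nidogen that links laminin to collagen IV, showed another order, with young replicate 1 the highest of all arrays. It stood at 0.78, 0.72, 0.50 and 0.29 in the young and at 0.08, 0.14, 0.13 and 0.36 in the aged samples, overlapping through young replicate 4 and aged replicate 4 (−0.39 ± 0.13, adjusted p = 0.102). Lama5, the alpha chain of the main laminin of adult epithelia and vessels, differed by −0.30 ± 0.15 (adjusted p = 0.204) with overlapping groups. Col18a1, a basement membrane collagen with heparan sulfate chains whose C-terminal fragment is endostatin, stood at 0.15, 0.07, −0.02 and 0.05 in the young and at −0.15, −0.48, −0.05 and −0.15 in the aged samples. Its groups did not overlap, by a margin smaller than the spread within the aged group (−0.27 ± 0.12, adjusted p = 0.156).

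Of the fibrillar collagens, Col1a1, Col1a2, Col3a1 and Col5a1 had lower values in aged samples at an unadjusted p under 0.05 in limma. Col5a3, Col2a1 and Col11a2 did not. Col1a1 and Col1a2 encode the chains of collagen I, the main fibril of connective tissue. The Col1a1 probe used stood at −0.61, −0.27, −0.45 and −0.26 in the young and at −0.85, −1.20, −1.39 and −1.72 in the aged samples, with no overlap. The log2 change was −0.90 ± 0.18 and had the smallest p among the matrix genes (adjusted p = 0.0542). A further Col1a1 probe, also above background on all arrays, differed by −0.09 with overlapping groups. With the mean of a gene's probes Col1a1 differed by −0.49. Col1a2 showed the pattern of Col4a1: −0.74, 1.06, 1.06 and 1.06 in the young and −0.11, −1.49, −0.13 and −0.49 in the aged samples. Young replicate 1 thus stood far below the other young arrays for Col1a2 and near them for Col1a1 (Col1a2 −1.17 ± 0.46, adjusted p = 0.126).

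Col3a1, the chain of collagen III that forms thin fibrils with collagen I, was near background in aged samples, so that the size of its difference is uncertain. Young values were −4.25, −2.57, −2.65 and −2.36 and aged values −4.26, −5.32, −5.17 and −4.55. Young replicate 1 exceeded aged replicate 1 by so little that the separation rests on these 2 arrays. The probe was well above background on 2 of 4 aged arrays (3.65-fold lower, −1.87 ± 0.42, adjusted p = 0.0561). Col5a1, a chain of the collagen that starts fibril assembly, was at −2.90, −2.86, −2.96 and −3.20 in the young, a narrow range, and at −4.20, −3.19, −3.70 and −3.50 in the aged samples (−0.67 ± 0.20, adjusted p = 0.0842). Col5a3 differed by −0.05 ± 0.14 and Col2a1, the cartilage fibril collagen, by 0.24 ± 0.15 (adjusted p = 0.823 and 0.304). Col11a2 was the only tested matrix gene with a higher mean in aged samples at an unadjusted p under 0.05. Its values were −2.71, −1.60, −2.99 and −3.02 in the young and −1.41, −1.01, −1.82 and −2.09 in the aged samples, so that young replicate 2 lay within the aged range (1.0 ± 0.34, adjusted p = 0.102).

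Of the other collagens, Col6a2, a chain of the beaded filaments that link basement membranes to fibrils, was lower on every aged array. It stood at −0.56, 0.16, 0.21 and 0.12 in the young and within a narrow range, −0.95, −0.80, −0.76 and −0.83, in the aged samples (−0.82 ± 0.17, adjusted p = 0.0561). The fibril-associated collagens had higher means in aged samples with overlapping groups in all 3. Col9a2 differed by 0.37 ± 0.22, Col14a1 by 0.24 ± 0.37 and Col9a1 by 0.07 ± 0.13 (adjusted p = 0.262, 0.668 and 0.727). Col8a1, a network collagen of vessels, differed by −0.18 ± 0.23 (adjusted p = 0.603), with 3 of 4 aged arrays above background.

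Fibrillins and fibulins build the microfibrils of elastic tissue. Fbn1, the main fibrillin of adult tissue, was at −3.13, −2.78, −2.80 and −3.37 in the young and at −3.58, −3.43, −3.93 and −3.44 in the aged samples, without overlap (−0.57 ± 0.17, adjusted p = 0.0832). Fbn2, a fibrillin better known from development, was at 2.73, 1.98, 1.86 and 1.70 in the young and at 2.04, 2.39, 2.15 and 2.42 in the aged samples. Young replicate 1 was the highest of the 8 arrays for Fbn2, opposite to its place for Col4a1 (0.18 ± 0.22, adjusted p = 0.580). Fbln1 differed by 0.02 ± 0.16 (adjusted p = 0.942).

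The secreted glycoproteins and proteoglycans had a median change of −1.02 over 5 genes, and in 4 of the 5 aged replicate 2 was lowest, young replicate 1 next and young replicates 2 to 4 highest. Sparc, a collagen-binding protein that regulates matrix assembly, was at −1.09, 1.41, 1.75 and 1.65 in the young and at −0.56, −2.12, 0.03 and −0.13 in the aged samples (−1.62 ± 0.68, adjusted p = 0.143). Bgn, a small proteoglycan, was at 0.23, 2.23, 2.37 and 2.60 in the young and at 0.91, −0.54, 0.87 and 0.76 in the aged samples (−1.36 ± 0.53, adjusted p = 0.126). Dcn, the related proteoglycan that binds collagen fibrils, was at −3.14, −1.65, −1.29 and −1.34 in the young and at −2.39, −3.79, −2.59 and −2.74 in the aged samples (−1.02 ± 0.44, adjusted p = 0.153). In these 3 genes young replicate 1 thus lay within the aged range, below 3 of the 4 aged arrays. Mgp, an inhibitor of calcification, had the same arrays lowest and highest, at 0.73, 2.42, 2.74 and 2.65 in the young and at 1.57, 0.26, 1.75 and 1.73 in the aged samples (−0.81 ± 0.49, adjusted p = 0.277). Fn1, the cell-adhesive glycoprotein of provisional matrix, did not, with values of −0.67, −0.79, −1.12 and −1.02 in the young and −0.77, −0.93, −1.21 and −0.84 in the aged samples (−0.04 ± 0.14, adjusted p = 0.869).

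**Figure D3:**
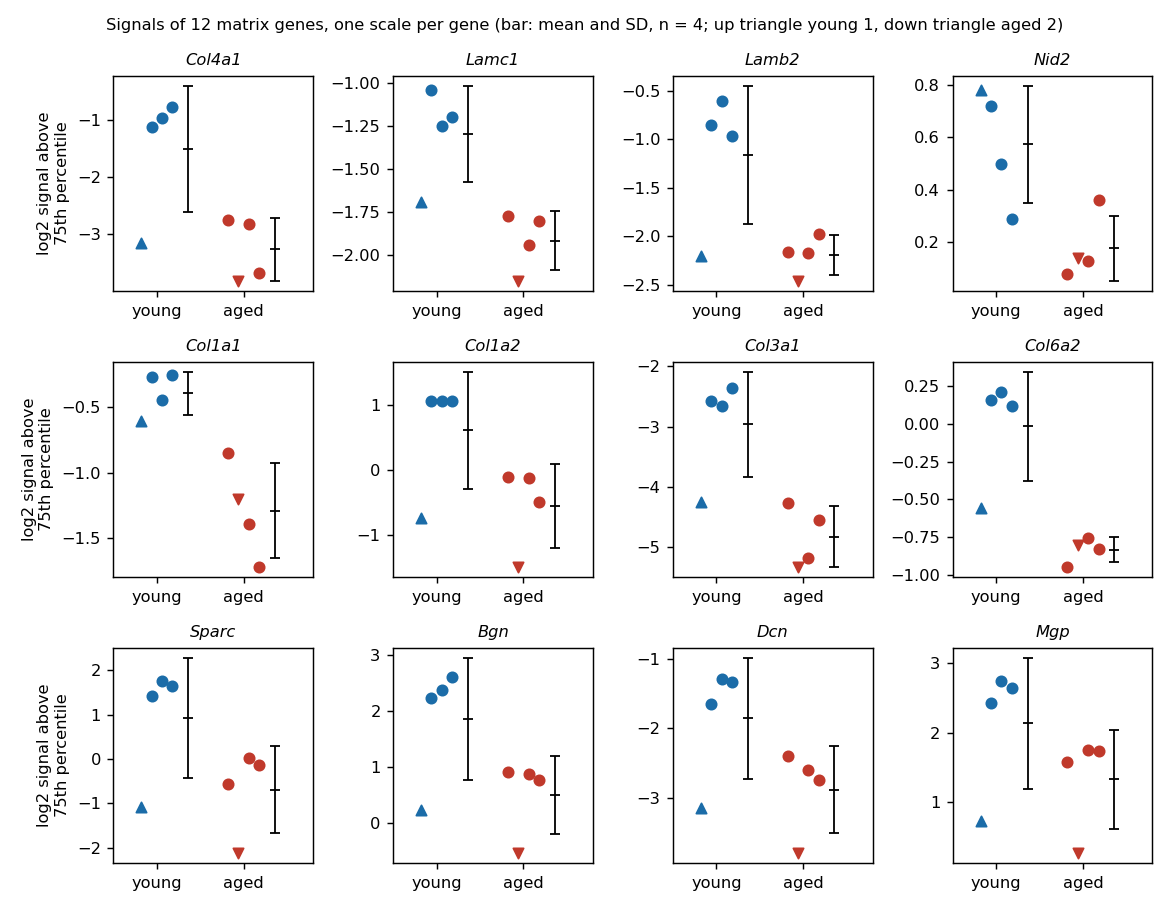
Log2 signal relative to the 75th percentile of the array for 12 matrix genes, each on its own scale, with the 4 young samples in blue, the 4 aged samples in red, and bars giving the mean and SD of each group. The up triangle, young replicate 1, sits with the aged samples for Col4a1, Lamb2, Col1a2, Sparc, Bgn, Dcn and Mgp, and above them for Lamc1, Nid2, Col1a1 and Col6a2.

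More of these genes passed when young replicate 1 was left out, and so did more of all genes, 3776 against 67. Some other processing settings also raised the number. Young replicate 1 lay within the range of the aged arrays in 11 of the 27 genes. Among the 15 with lower aged values at an unadjusted p under 0.05, it did so in 7 (Lamb3, Col4a1, Lamb2, Col1a2, Bgn, Sparc and Dcn). Aged replicate 2 was the lowest of all arrays in 10 of those 15. Without young replicate 1, 13 genes passed as lower and 1, Fbn2, as higher in limma, against 14.6% and 22.3% of all genes. For Col4a1 the change was then −2.31 with adjusted p = 0.00306 (range over all alternatives 0.00174 to 0.300), and for Sparc −2.30 with adjusted p = 0.0109 (range 0.00677 to 0.378). Leaving out any other single array left 0 of the 27, by limma. Without aged replicate 2 the change was smaller for Mgp (−0.45), Dcn (−0.72), Bgn (−1.01), Col1a2 (−0.85) and Col4a1 (−1.58). It was larger for Col5a1 (−0.82), Fbn1 (−0.63) and Col1a1 (−0.93), among others.

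**Figure D4:**
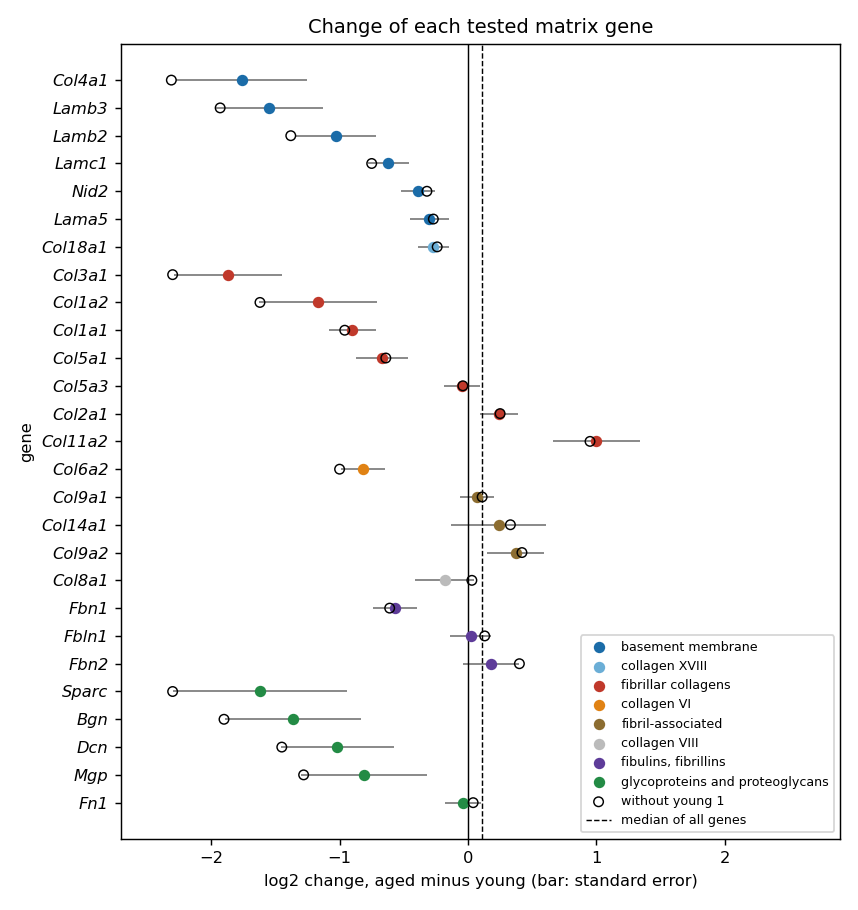
Log2 change, aged minus young, of each of the 27 tested matrix genes (filled points, coloured by class, with standard errors) and the same change without young replicate 1 (open circles), beside the median of all genes at 0.11 (dashed line). Open circles lie left of the filled points for Col4a1, Col3a1, Col1a2, Sparc, Bgn and Dcn and close to them for Col1a1, Nid2 and Col5a1.

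Several sizes were smaller when background was corrected by normexp. With quantile scaling after it, the change was −0.58 for Col3a1, −0.35 for Lamb3, −0.93 for Col4a1, −0.17 for Col5a1, −0.19 for Fbn1, −0.53 for Dcn, −0.36 for Lamc1, −0.66 for Lamb2 and 0.65 for Col11a2. The brighter Bgn (−1.35), Sparc (−1.41), Mgp (−0.89) and Col1a2 (−1.0) moved less. Further, dimmer probes of 3 genes differed in the same direction by less than the probes used: a Col4a1 probe by −0.45, a Lamc1 probe by −0.39 and a Bgn probe by −0.31. A dimmer Nid2 probe that did not pass the filter differed by 0.16, opposite to the probe used. It was above background on 3 young and 3 aged arrays.

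Among the 9 matched genes that were not tested were Col4a4, Lama1, Lamc3, Lum, Fbln5, Col7a1, Col13a1 and Col23a1. No probe of Col4a4 or Lum was well above background on any array. Lama1, the alpha chain of embryonic and tubular laminin, and Fbln5, an elastic fibre protein, were above background on 2 young and 0 aged arrays. A probe of Col23a1, a transmembrane collagen, was above it on 3 young and 3 aged arrays, Col13a1 on 1 young array, and Col7a1 and Lamc3 on 1 aged array each.

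Genes that make, degrade or bind matrix were read from 4 lists drawn up by function. In limma 0 of their tested genes passed. Over all genes tested, 36.6% had lower means in aged samples, and at an unadjusted p under 0.05 13.6% were lower and 17.8% higher, the shares against which the counts of these lists and of the marker lists stand. Of 18 genes for collagen folding, processing and cross-linking, 13 had higher and 5 lower means in aged samples, with a median of 0.14, close to 0.11 for all genes. The genes with the smallest p were Loxl2, a collagen cross-linking oxidase (−0.60 ± 0.12, adjusted p = 0.0531), P3h1, a prolyl 3-hydroxylase (0.55 ± 0.12, adjusted p = 0.0561), and Serpinh1, the collagen chaperone HSP47 (−0.54 ± 0.14, adjusted p = 0.0676). At an unadjusted p under 0.05, 4 of the 18 were lower and 4 higher.

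Matrix receptors had lower means in 9 of 10 genes (median −0.46), 6 of them at an unadjusted p under 0.05. They were led by the integrin chain Itga8 (−1.03 ± 0.28, adjusted p = 0.0723), the laminin receptor Bcam (−1.32 ± 0.38, adjusted p = 0.0788) and the syndecan Sdc3 (−0.58 ± 0.19, adjusted p = 0.0895, 2 of 4 aged arrays above background). Matrix proteases and inhibitors were lower in 7 of 9 genes (median −0.37, 2 at an unadjusted p under 0.05), among them the plasminogen activator Plat (−1.65 ± 0.54, adjusted p = 0.0918) and the membrane-bound protease Mmp14 (−0.33 ± 0.13, adjusted p = 0.119). Genes of transforming growth factor beta signalling and its targets had lower means in 7 of 10 (median −0.22), 3 lower and 2 higher at an unadjusted p under 0.05. Ltbp3 stood at −0.75 ± 0.20 and Ccn1 at −1.15 ± 0.31 (adjusted p = 0.0687 and 0.0695). Ltbp3 encodes a protein that holds the latent growth factor in the matrix, and Ccn1 a secreted matricellular protein. The 2 higher genes, named after their values were seen, were the receptor gene Tgfbr1 (0.37 ± 0.14, adjusted p = 0.119) and Ltbp2 (0.31 ± 0.12, adjusted p = 0.133).

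Marker lists of several cell types differed between the groups too, some in the direction of the matrix genes and some not. All 7 tested contractile markers of myoid cells, of 9 listed, had lower means in aged samples (median −1.79), all at an unadjusted p under 0.05, with 0 passing after adjustment and 7 passing without young replicate 1. The mean of the list was 1.26 to 1.49 on young replicates 2 to 4 but −0.91 on young replicate 1, and on aged arrays it ran from −1.69, in replicate 2, to −0.34. Acta2, smooth muscle actin, was at −1.11, 1.09, 1.11 and 1.21 in the young and at −0.74, −1.84, −0.60 and −0.79 in the aged samples (−1.57 ± 0.52, adjusted p = 0.0944), with young replicate 1 and aged replicate 2 lowest, as in Sparc. Myh11, smooth muscle myosin, differed by −2.18 ± 0.65 (adjusted p = 0.0802). The remaining 2, Cnn1 and Lmod1, were above background on at most 3 arrays. Stromal and pericyte markers without matrix genes were lower in 5 of 6 (median −0.64), with means of −0.07 to 0.54 on young and −0.51 to −0.10 on aged arrays. One of them, Cspg4, a proteoglycan of pericytes, fell by 1.55 ± 0.27 on the log2 scale (adjusted p = 0.0465), and Thy1 was above background on 0 arrays. That call was lost in 12 of 22 alternatives, among them leaving out any array other than young replicate 1 (range over all alternatives 0.00147 to 0.272). Sertoli cell markers were higher in 5 of 7 (median 0.18, means −0.42 to 0.32 on young and −0.16 to 0.21 on aged arrays), and Rhox5, a homeobox gene of Sertoli cells, rose by 0.82 ± 0.13 (adjusted p = 0.0465). The Rhox5 call was lost in 11 of 22 alternatives, again including the removal of any array other than young replicate 1 (range 0.00175 to 0.272). Endothelial markers were lower in 3 of 4 (median −0.56, means −0.39 to 0.66 and −0.68 to −0.12). Over the 3 above background on all arrays their median was −0.11, with Kdr at −1.02, Pecam1 at −0.11 and Cdh5 at 0.10. Macrophage markers were lower in 10 of 10 (−0.74, −0.51 to 1.03 and −1.43 to 0.51) and spermatid markers in 11 of 11 (−0.75, −0.54 to 1.0 and −1.09 to −0.05). Adgre1, Cd14 and Cd163 passed the filter through the young arrays alone, as did the spermatid marker Acrv1. Over the 7 macrophage markers above background on all arrays the median was −0.62, and over 10 such spermatid markers −0.75. Leydig cell markers (5 genes, median −0.10, means −0.74 to 0.57 and −0.74 to 0.41) and spermatogonial markers (13 genes, −0.16, means −0.03 to 0.17 and −0.11 to 0.06) had medians closer to 0. Both lay below the median of 0.11 for all genes, to which the Sertoli median of 0.18 was nearer. As in the myoid list, young replicate 1 and aged replicate 2 were the lowest arrays of their groups in the Sertoli, endothelial, macrophage, spermatid and Leydig means. In the stromal means this held for young replicate 1 only, and in the spermatogonial means for neither. The spermatogonial genes went both ways, 2 lower and 2 higher at an unadjusted p under 0.05: Gfra1, the receptor of a stem cell niche factor, differed by −0.89 ± 0.25, its co-receptor Ret by −0.41 ± 0.14, Dazl by 0.52 ± 0.15 and the adhesion gene Epcam by 0.46 ± 0.11 (adjusted p = 0.0742, 0.104, 0.0801 and 0.0561). Cd9, the gene of the sorting antigen, differed by −0.16 ± 0.16, and Zbtb16, a gene of undifferentiated spermatogonia, by −0.09 ± 0.18 (adjusted p = 0.492 and 0.739). The part of any of these cell types in the matrix differences was not tested.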

How the data were processed

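Scanner output of 8 arrays was used, grouped by the age in the labels. The deposited processed signal is an intensity from which, per the file headers, Agilent Feature Extraction 10.7.3.1 (12.5 per the submitters' processing notes) had subtracted background and a spatial trend, and other deposited columns hold raw median spot and background intensity and flags. The authors' deposited table holds log2 values of 30505 probes, each centred on its median over the arrays (within 5e-07). Differences between its arrays matched those of 75th percentile scaling over 7563 bright probes (slopes from 0.999, r of at least 0.999 across probes, offsets of at most 0.004), and its column medians ran from −0.14 to 0.093. How its direction was stated by the authors is not given in the sources used here, and it was settled by this match.

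After removal of control and outlier spots, the log2 processed signal was averaged over the spots of a probe, and each array was set relative to its own 75th percentile. RefSeq genes (assembly GRCr8, used for names and promoter sequence only) were found by accession without version, naming 17998 of 30367 probes. Probes entered the test when, in at least 1 group, every array had at least 0.5 of their spots well above background and both groups had at least 2 values. A gene was read from its kept probe with the highest mean (11950 probes, 10236 genes). No spot was saturated. Groups were compared with limma 3.58.1 (lmFit and eBayes, a two-sided test with 9.15 degrees of freedom after moderation; R 4.3.3), adjusted by Benjamini-Hochberg over all tested genes at 0.05. The procedure was tested on simulated data with independent noise for each gene and array. No array was set apart there, so the simulation does not cover arrays that stand apart.

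The members and lists were chosen with earlier results of these data known. Genes were named by a rule: fixed members, the 12 with the smallest p, up to 2 of each class, up to 3 of a pathway list and fixed markers. Other tested members are named to account for each, and 1 member that was not tested is not reported here. The number of arrays limits the precision.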

Additional observations from a re-analysis of the deposited data

Results flagged for a closer look

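In groups of 4 arrays, the array farthest from the others was singled out where its gap to the nearest, as a share of the range of the group, exceeded Dixon's critical value. Of 88 groups of values (27 matrix genes and 17 list means, in young and in aged samples), 19 held such an array, where chance gives about 1 in 20 and genes that move together are counted separately. Young replicate 1 was that array in 12 of the 19. Its signal was low at 0.23 for Bgn (other young arrays 2.23 to 2.60), −0.74 for Col1a2 (1.06 each), −4.25 for Col3a1 (−2.65 to −2.36), −3.15 for Col4a1 (−1.12 to −0.78), −0.56 for Col6a2 (0.12 to 0.21), 0.73 for Mgp (2.42 to 2.74) and −1.09 for Sparc (1.41 to 1.75). Its list means were low at −0.18 for basement membrane genes (0.61 to 0.75), −0.74 for glycoproteins and proteoglycans (0.78 to 0.96), −0.21 for matrix turnover (0.33 to 0.36), −0.03 for matrix receptors (0.37 to 0.44) and −0.91 for myoid contractile genes (1.26 to 1.49). Aged replicate 2 was low at −0.54 for Bgn (other aged arrays 0.76 to 0.91) and 0.26 for Mgp (1.57 to 1.75). It was also low in the means of glycoproteins and proteoglycans (−1.37, others −0.20 to −0.18), matrix turnover (−0.71, others −0.07 to 0.01) and endothelial markers (−0.68, others −0.16 to −0.12). Col2a1 was high in aged replicate 3 at −3.60 (others −3.96 to −3.91), and Col9a1 was low in aged replicate 1 at −3.37 (others −3.12 to −3.08). What sets these arrays apart was not tested.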

How the results depend on the processing

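The 0 matrix genes called became 6 with median scaling (1 higher), 1 with normexp and quantile scaling, 4 with normexp and percentile scaling, 2 with a trended robust variance, 16 with array weights (2 higher) and 11 with spike-in scaling, chosen after seeing the data, and stayed 0 with the other alternatives other than leaving out an array, which gave 0 to 14. All genes called were 67, against 1330 with median scaling, 0 with no scaling, 259 with normexp and quantile scaling, 633 with normexp and percentile scaling, 0 with no filter on dim probes, 270 with a trended robust variance, 4564 with array weights, 0 with the replicate block and 958 with spike-in scaling (952 lower), and 0 to 3776 when an array was left out. At an unadjusted p under 0.05 the settings with 0 calls had 1389 (no scaling), 3339 (no filter) and 3231 (replicate block) genes. The basement membrane median of −0.83 was −0.35 or −0.39 with normexp (quantile or percentile) and −1.28 with spike-in scaling. The fibrillar median of −0.67 was −0.17 or −0.20 with normexp, −0.36 with probes above background on all arrays and −1.12 with spike-in scaling. Their difference was −0.41 with array weights and −0.43 to 0.08 when an array was left out. Leaving out an array moved the medians within −1.07 to −0.73 and −0.82 to −0.48. Normexp adds an offset of 50, which shrinks differences of dim probes; the cause of the other shifts was not tested. Median scaling moved the median of all genes from 0.11 to 0.26 and spike-in scaling (4 probes above 100 on all arrays) to −0.35.

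Of the single genes, 20 kept a negative and 7 a positive value where no exception follows. Spike-in scaling turned Col14a1 and Col2a1 to −0.21 each, Col9a1 to −0.38, Col9a2 to −0.08, Fbln1 to −0.43 and Fbn2 to −0.27. Col5a3 turned to 0.11, 0.09 and 0.02 with median scaling, quantile scaling and array weights, and ran from −0.11 to 0.06 when an array was left out. Col8a1 turned to 0.01 with quantile scaling (−0.35 to 0.03 with an array left out), Fbln1 to −0.01 with no scaling (−0.08 to 0.13), and Fn1 to 0.12 and 0.02 with median and quantile scaling (−0.11 to 0.05). The replicate numbers also number the columns of the slide. Deviations of same-numbered arrays correlated across genes at −0.26, −0.12, 0.44 and 0.35, so the numbers were not taken to pair samples. The replicate block left 0 matrix genes called, as without it. With it Cspg4 and Rhox5 each had an adjusted p of 0.0773. Col3a1, Lamb3 and Col8a1 could not be tested with probes above background on all arrays.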
